A study of Homo sapiens with 10 samples.

Results

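The HOX genes described here are the protein-coding members of the HOXA, HOXB, HOXC and HOXD clusters. They were taken by name (HOXA to HOXD followed by a number) from the gene tables, which held 39 such entries among 30357 named genes. The values of 38 are given, 10 in HOXA, 10 in HOXB, 9 in HOXC and 9 in HOXD, and the remaining entry is not reported here. The cells were cultures of sensory neurons grown from an established line of human embryonic stem cells, RUES2, edited to carry a tdTomato reporter at AVIL (RUES2-Avil:tdT), a gene active in sensory neurons. All groups share this edited line and were collected at day 60 in vitro. The groups differed by differentiation protocol, with 4 libraries of the nociceptor protocol (meant to bias neurons toward pain sensing), 3 of the mechanoreceptor protocol (toward low-threshold touch) and 3 of the proprioceptor protocol (toward the sense of muscle stretch). The labels called the libraries biological replicates but gave no detail on separate differentiations or on sorting for the reporter, so the spread behind each p-value may be technical in part.

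HOX genes encode homeodomain transcription factors that give cells along the head-to-tail axis of the embryo their positional identity. They lie in clusters in which the order of the genes follows the order of their use: genes at the 3′ end, with low paralog numbers, are switched on early and reach far forward into the hindbrain, and genes at the 5′ end, with high numbers, are switched on later and farther back. Genes with the same number in different clusters are paralogs that arose by duplication of a whole cluster. In the peripheral nervous system, neural crest cells and the sensory ganglia they form carry the HOX genes of the axial level at which they arose, with groups 4 and 5 typical of the neck, 6 to 9 of the trunk and 10 to 13 of the lumbar and sacral levels.

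The libraries held between 27891186 and 44541262 counts in named genes. Genes of neurons were high in every library: the mean level of a list of 15 pan-neuronal genes (mean log2 CPM, in which counts are divided by library size) was between 8.11 and 9.52, and all 16 genes of a sensory neuron list passed the filter on low counts. RNA of other cells was present as well and varied within each protocol. The mean log2 CPM of 15 tested fibroblast and mesenchyme genes was 4.96, 4.81, 4.72 and 1.98 for nociceptor libraries 1 to 4, against 0.38, 0.75 and 4.28 for mechanoreceptor libraries 1 to 3 and 1.15, 4.25 and 0.78 for proprioceptor libraries 1 to 3, with no member of that list at 0 in all libraries. Lists of glia (0.44 to 8.09) and dividing cells (-0.05 to 4.36) ranged as widely. In these bulk samples, fewer cells of a type and less RNA per cell cannot be told apart.

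Most HOX transcripts came from the HOXB cluster, and the most 5′ genes above 1 TPM were those of paralog group 9. Of the 38 genes, 23 reached a TPM of 1 (transcript abundance per length, with an equal total for each library) in at least 1 library and 7 reached it in all 10. Those 7 were HOXB2, HOXB5, HOXB6, HOXB7, HOXB9, HOXD3 and HOXD8. Of the 12 genes of groups 10 to 13, 0 reached 1 TPM in any library, and the highest value among them was 0.533, for HOXA10 in nociceptor library 2. HOXA13, HOXB1, HOXD11 and HOXD13 had 0 counts in every library, which allows at most 0.0674 to 0.108 CPM per library (3 counts of the total, counting error only). A further 7 genes (HOXA11, HOXC10, HOXC11, HOXC12, HOXC13, HOXD10 and HOXD12) had at least 1 count and never more than 10. With HOXA10 and HOXD4, these made up the 13 genes that did not pass the filter on low counts, and the other 25 were tested.

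**Figure D1:**
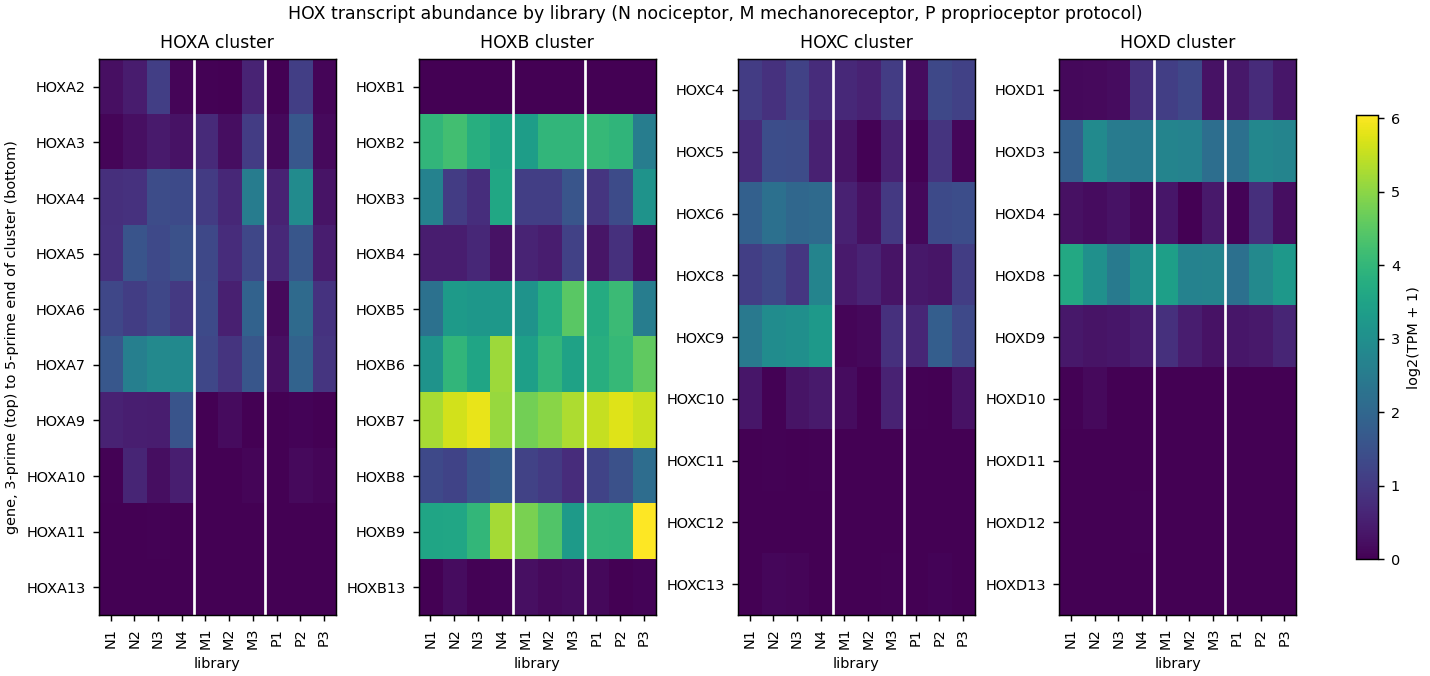
Abundance of the 38 HOX genes as log2(TPM + 1) (colour scale) in the 10 libraries (columns, N nociceptor, M mechanoreceptor, P proprioceptor protocol), with the genes of each cluster from the 3′ end at the top to the 5′ end at the bottom. HOXB2, HOXB5, HOXB6, HOXB7 and HOXB9 are bright in all 10 libraries, the HOXC panel is brighter in the 4 nociceptor libraries than in the other 6, and the genes of groups 10 to 13 are dark throughout.

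The clusters differed in how far their sum varied with the protocol. The summed TPM of HOXB was 107.5 ± 22.9 in nociceptor (SD, n = 4), 92.3 ± 8.02 in mechanoreceptor (n = 3) and 125 ± 27.4 in proprioceptor libraries (n = 3), which is 73.6%, 80.0% and 84.2% of all HOX TPM. HOXD held 13.01 ± 2.10, 13.3 ± 3.78 and 12.3 ± 3.74 in the same order. HOXA held 10.7 ± 3.43, 7.29 ± 4.97 and 7.40 ± 9.30. HOXC was the cluster whose libraries separated: its sum was 10.3, 14.5, 14.3 and 19.2 for nociceptor libraries 1 to 4, against 1.91, 1.35 and 4.09 for mechanoreceptor libraries 1 to 3 and 1.17, 6.73 and 5.92 for proprioceptor libraries 1 to 3. As a share of all HOX TPM, HOXC took between 9.15% and 10.5% in the nociceptor libraries, between 1.20% and 3.27% in the mechanoreceptor libraries and between 1.04% and 4.29% in the proprioceptor libraries, so the nociceptor libraries did not overlap with the others. No test was made of these sums.

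**Figure D2:**
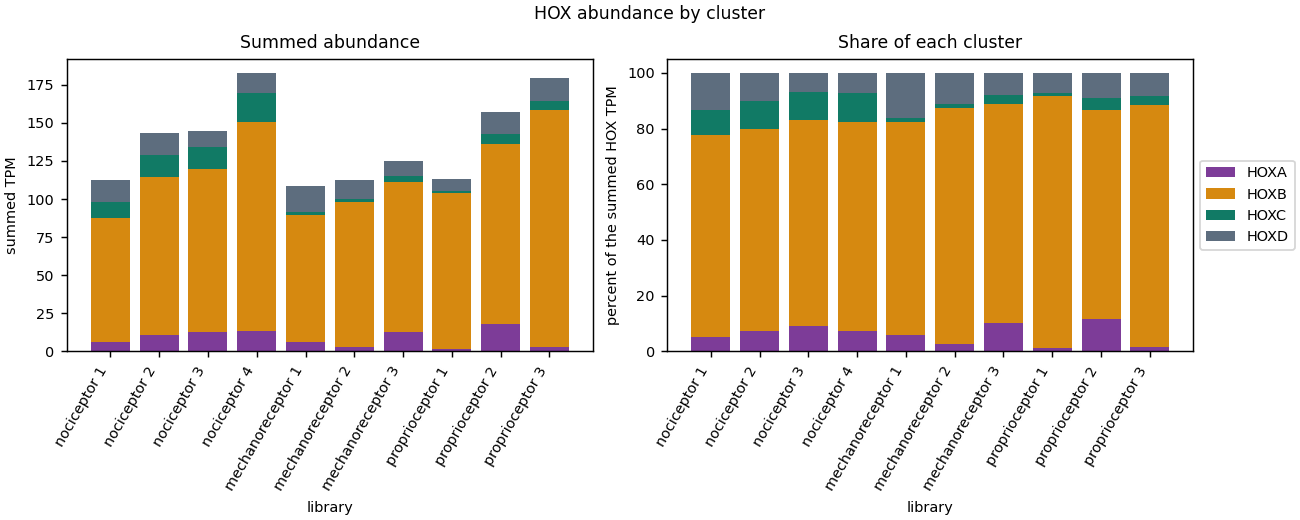
Summed TPM of the HOX genes of each cluster (left panel, vertical axis in TPM) and the share of each cluster in the summed HOX TPM (right panel, vertical axis in percent), as stacked bars, 1 bar per library in each panel. HOXB is the largest part of every bar, and the HOXC part is 9.15% or more in the 4 nociceptor libraries and at most 4.29% in the other 6.

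The most 5′ gene at 1 TPM or more, a simple reading of how far along a cluster transcription reached, was the same in all 10 libraries for 2 clusters. It was HOXB9 in HOXB and HOXD8 in HOXD. In HOXC it was HOXC9 in 6 libraries, namely all 4 nociceptor libraries and proprioceptor libraries 2 and 3. It was HOXC4, at the other end of the cluster, in mechanoreceptor library 3, and no HOXC gene reached 1 TPM in mechanoreceptor libraries 1 and 2 or proprioceptor library 1. In HOXA it was HOXA9 in nociceptor library 4 and HOXA7 in 6 libraries (nociceptor 1 to 3, mechanoreceptor 1 and 3, proprioceptor 2), and no HOXA gene at or above group 7 reached 1 TPM in mechanoreceptor library 2 or proprioceptor libraries 1 and 3, where no other HOXA gene did either. These readings depended on the threshold. In mechanoreceptor library 3, HOXC6 (0.992 TPM) and HOXC9 (0.784 TPM) lay under it. HOXC9 was the most 5′ HOXC gene in 8 libraries at a TPM of at least 0.5 and in 8 at 10 counts. Mechanoreceptor library 3 and proprioceptor library 1 were among these at both settings. In mechanoreceptor libraries 1 and 2 it was HOXC8 at 10 counts. HOXA9 was the most 5′ gene in 2 libraries at a TPM of at least 0.5 and in 0 at a TPM of at least 2. At 10 counts, HOXB13 took the place of HOXB9 in 3 libraries and HOXD9 that of HOXD8 in 9, and HOXD8 held in 8 libraries at a TPM of at least 0.5 and in 8 at a TPM of at least 5.

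Paralog group 9, the most 5′ group expressed, is among those in which the clusters parted, besides the groups of HOXC6 and HOXC8 below. Its 4 genes, HOXA9, HOXB9, HOXC9 and HOXD9, encode proteins with closely related homeodomains, and the homeobox is the stretch of 180 bases that encodes that domain. The sequences of HOXC9, HOXB9 and HOXD9 are shown because they carry the DNA-binding part that these paralogs share and also show how far reads of 1 gene can be told from those of another. Each was read from the reference transcript of the gene in the GENCODE annotation of GRCh38, 5′ to 3′, with the positions that differ among these 3 genes in capitals.
HOXC9: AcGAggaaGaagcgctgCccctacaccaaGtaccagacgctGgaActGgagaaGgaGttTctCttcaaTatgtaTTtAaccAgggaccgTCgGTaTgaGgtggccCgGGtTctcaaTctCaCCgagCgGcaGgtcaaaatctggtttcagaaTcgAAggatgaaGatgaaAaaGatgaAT
HOXB9: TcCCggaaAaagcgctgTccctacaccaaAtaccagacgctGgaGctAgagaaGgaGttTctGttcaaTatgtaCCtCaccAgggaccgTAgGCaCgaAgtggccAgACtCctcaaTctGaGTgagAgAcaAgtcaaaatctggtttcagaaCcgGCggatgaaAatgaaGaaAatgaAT
HOXD9: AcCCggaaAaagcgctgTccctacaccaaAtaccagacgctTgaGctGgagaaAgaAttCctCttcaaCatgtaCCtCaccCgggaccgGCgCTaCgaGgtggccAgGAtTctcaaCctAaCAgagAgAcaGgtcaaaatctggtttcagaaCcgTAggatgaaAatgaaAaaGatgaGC

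Of the 180 positions, 137 were the same in all 3 and 43 varied. HOXC9 matched HOXB9 at 82.2% and HOXD9 at 83.3% of the homeobox. Over all annotated transcripts of a gene, the share of stretches of 31 bases (the default word length of kallisto) that also occur in another gene was 2.67% for HOXC9, shared with HOXC6, 0.392% for HOXB9, 0.543% for HOXD9 and 12.3% for HOXA9, the last shared with HOXC5 and 2 genes outside the clusters. Reads of HOXC9 and HOXB9 were therefore largely separable by sequence, and HOXA9 values carry more uncertainty.

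HOXC9, which sets thoracic identity in spinal motor neurons, had the smallest edgeR p of the 25 tested HOX genes between mechanoreceptor and nociceptor libraries. The gene spans 54000161 to 54003337 on the plus strand of chromosome 12 (GRCh38.p14). Its TPM was 4.47, 6.65, 7.07 and 8.73 for nociceptor libraries 1 to 4, against 0.0629, 0.0915 and 0.784 for mechanoreceptor libraries 1 to 3 and 0.576, 2.51 and 1.504 for proprioceptor libraries 1 to 3. All 4 nociceptor libraries lay above all 6 others, and proprioceptor library 1 lay within the mechanoreceptor range. The counts behind the mechanoreceptor values were 2, 3 and 18.

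The edgeR log2 fold change of HOXC9 was -4.55 ± 0.85 (SE, here and for all log2 fold changes) for mechanoreceptor minus nociceptor (unadjusted p = 0.000252, adjusted p = 0.598 over 16130 genes). For proprioceptor minus nociceptor it was -2.01 ± 0.74 (edgeR unadjusted p = 0.0199, adjusted p = 0.665). For proprioceptor minus mechanoreceptor it was 2.54 ± 0.81 (edgeR unadjusted p = 0.00971, adjusted p = 0.999998). With DESeq2 in place of edgeR, the first of these passed the adjusted threshold of 0.05 (adjusted p = 3.82e-07), and the other two (0.249 and 0.799) did not. Leaving out mechanoreceptor library 3 moved the first log2 fold change to -6.33 and the third to 4.29. Within the protocols, HOXC9 was highest in nociceptor library 4, which had the lowest mesenchyme level of its protocol (1.98), and in mechanoreceptor library 3 and proprioceptor library 2, which had the highest of theirs (4.28 and 4.25). These libraries held the same ranks for genes of glia and of dividing cells. The part of mesenchymal RNA in HOXC9 was not tested apart from a fit with that level as a term. With the level of mesenchyme genes in the fit, the mechanoreceptor minus nociceptor value was -4.39 ± 0.76 (edgeR adjusted p = 0.169).

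HOXC9 came from 3 annotated transcripts. The coding transcript HOXC9-201, which starts at 54000119, was at 1.20, 2.65, 2.24 and 2.07 TPM with the nociceptor protocol, 0.0629, 0.0816 and 0.546 with the mechanoreceptor protocol and 0, 1.01 and 0.572 with the proprioceptor protocol. A second coding transcript, HOXC9-203, which starts upstream at 53995509, was at 0.878, 1.89, 3.16 and 4.98 in the nociceptor libraries, at 0 in all 3 mechanoreceptor libraries and at 0.576, 0.549 and 0.932 in the proprioceptor libraries. A noncoding transcript that starts at 53994895 made up the rest, so that coding transcripts held 72.1% of HOXC9 TPM summed over the libraries. The transcripts overlap, and their division is an estimate of the pseudoalignment.

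HOXB9, its paralog on chromosome 17 (48621156 to 48626358, minus strand), did not follow this order. Its TPM was 10.7, 10.9, 14.96 and 36.5 with the nociceptor protocol, 27.4, 20.2 and 8.85 with the mechanoreceptor protocol and 14.9, 14.5 and 65.2 with the proprioceptor protocol. The 3 protocols overlapped, and the highest values stood in nociceptor library 4 and proprioceptor library 3. The log2 fold change against nociceptor libraries was -0.09 ± 0.60 for mechanoreceptor and 0.87 ± 0.60 for proprioceptor libraries (edgeR adjusted p = 0.973 and 0.675). With the level of mesenchyme genes in the fit, the first became -1.14 ± 0.37 (edgeR unadjusted p = 0.00927, adjusted p = 0.999).

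HOXA9, which lies on chromosome 7 at 27162438 to 27165537 (minus strand), was close to the limit of detection outside the nociceptor protocol. It had 26, 21, 11 and 51 counts in nociceptor libraries 1 to 4 (0.502, 0.428, 0.390 and 1.97 TPM), 0, 2 and 0 with the mechanoreceptor protocol and 0, 1 and 0 with the proprioceptor protocol. The nociceptor libraries lay above all others. HOXA9 passed the filter on low counts through the nociceptor libraries alone, so as a tested gene it could only come out lower in the other protocols. Pooled over libraries, the rate was 42.6 times higher in nociceptor than in mechanoreceptor libraries (95% exact interval from the counts 11.5 to 356) and 76.2 times higher than in proprioceptor libraries (13.4 to 3038), intervals that cover counting error only. The edgeR unadjusted p was 0.000763 and 0.000636 (adjusted p = 0.598 and 0.665), and DESeq2 gave an adjusted p of 0.0127 and 0.0293. HOXD9 stayed between 0.236 and 0.793 TPM in all 10 libraries, and the protocols overlapped.

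Within the group, HOXB9 made up between 59.8% and 76.7% of the summed TPM in the nociceptor, between 89.7% and 97.0% in the mechanoreceptor and between 83.5% and 96.9% in the proprioceptor libraries. HOXC9 made up between 18.3% and 36.5%, between 0.223% and 7.94% and between 2.24% and 14.5% in the same order. The nociceptor ranges overlapped with neither of the others for either gene.

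**Figure D3:**
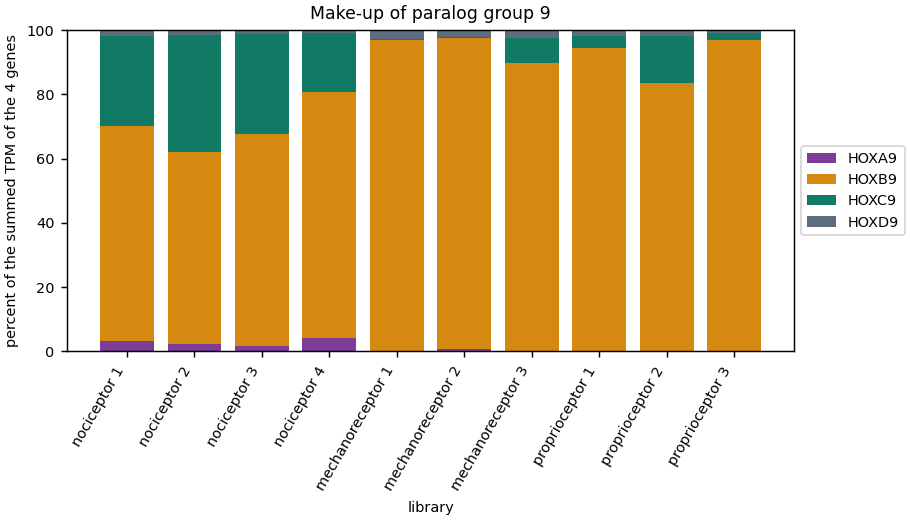
Share of each paralog in the summed TPM of HOXA9, HOXB9, HOXC9 and HOXD9 (vertical axis, percent), as stacked bars, 1 bar per library. HOXC9 fills between 18.3% and 36.5% of the nociceptor bars and at most 14.5% of the other 6.

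The other HOXC genes followed HOXC9 to differing degrees. HOXC8 and HOXC6 are trunk and limb-level genes that take part in assigning spinal neurons to forelimb and thoracic levels. HOXC8 (chromosome 12, 54008985 to 54012769) was at 1.17, 1.497, 0.927 and 5.66 TPM with the nociceptor protocol, 0.363, 0.521 and 0.238 with the mechanoreceptor protocol and 0.310, 0.265 and 1.14 with the proprioceptor protocol. The nociceptor libraries lay above all mechanoreceptor libraries, while proprioceptor library 3 fell among the nociceptor values. The log2 fold change was -2.72 ± 0.81 for mechanoreceptor minus nociceptor (edgeR unadjusted p = 0.00645, adjusted p = 0.598) and -1.89 ± 0.77 for proprioceptor minus nociceptor (0.0333, adjusted p = 0.665). Without nociceptor library 4, these were -1.80 and -0.97, and without proprioceptor library 3, the second was -2.63.

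HOXC6 (chromosome 12, 54016888 to 54030823) was at 2.59, 3.70, 3.07 and 3.23 TPM with the nociceptor protocol, 0.474, 0.198 and 0.992 with the mechanoreceptor protocol and 0.0990, 1.56 and 1.69 with the proprioceptor protocol. The 4 nociceptor values were close to each other and above the other 6. Its log2 fold change was -2.48 ± 0.79 for mechanoreceptor minus nociceptor (edgeR unadjusted p = 0.00932, adjusted p = 0.598) and -1.54 ± 0.75 for proprioceptor minus nociceptor (0.0649, adjusted p = 0.665). Without mechanoreceptor library 3, the first was -3.32. Most of its TPM (75.5% to 100% by library) came from HOXC6-201, which starts at 54028358 inside the gene.

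HOXC5 and HOXC4 lie at the 3′ end of the cluster and act at neck levels. HOXC5 ranged from 0.464 to 1.71 TPM in the nociceptor, from 0.0255 to 0.466 in the mechanoreceptor and from 0.0254 to 0.873 in the proprioceptor libraries, with a log2 fold change of -2.37 ± 1.09 for mechanoreceptor minus nociceptor (edgeR unadjusted p = 0.0526, adjusted p = 0.598). HOXC4 ranged from 0.715 to 1.28, from 0.501 to 1.11 and from 0.143 to 1.48, and its value for the same difference was -0.46 ± 0.56 (adjusted p = 0.817). The 3 protocols overlapped for HOXC4. In RefSeq, HOXC4, HOXC5 and HOXC6 share a start at 54016888, and 16.9%, 32.8% and 14.1% of their stretches of 31 bases occur in another gene, so part of the division among these genes is an estimate. HOXC8 shared none.

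**Figure D4:**
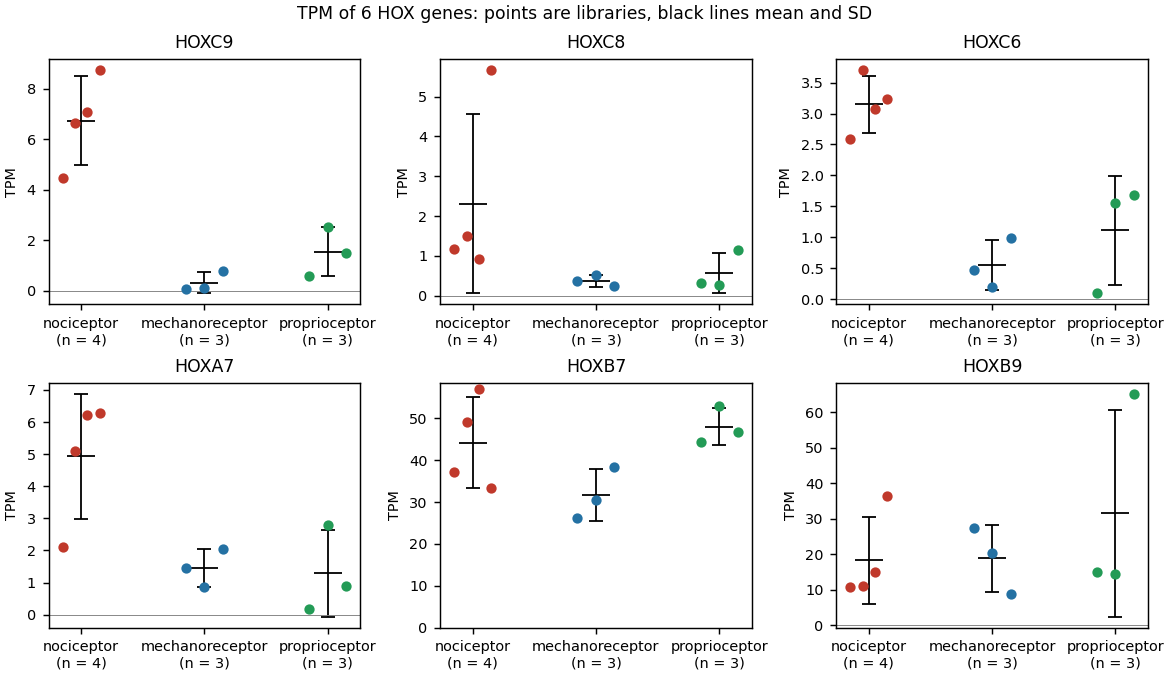
TPM (vertical axis, linear) of HOXC9, HOXC8, HOXC6, HOXA7, HOXB7 and HOXB9 by protocol, with 1 point per library and black lines for the mean and SD. For HOXC9 and HOXC6 the 4 nociceptor points lie above all 6 others, for HOXB9 the protocols overlap, and the HOXB7 points of the proprioceptor protocol (44.4 to 53.0) lie above those of the mechanoreceptor protocol (26.1 to 38.5).

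In the HOXA cluster, HOXA7 had higher values in most nociceptor libraries but passed no adjusted threshold. HOXA7, a trunk-level gene (chromosome 7, 27153716 to 27156675, minus strand), was at 2.12, 5.09, 6.21 and 6.29 TPM with the nociceptor protocol, 1.46, 0.872 and 2.06 with the mechanoreceptor protocol and 0.179, 2.80 and 0.907 with the proprioceptor protocol. Nociceptor library 1 lay just above the mechanoreceptor range and below proprioceptor library 2. The log2 fold change was -1.94 ± 0.73 for mechanoreceptor minus nociceptor (edgeR unadjusted p = 0.0227, adjusted p = 0.598) and -2.01 ± 0.74 for proprioceptor minus nociceptor (0.0198, adjusted p = 0.665). DESeq2 gave an adjusted p of 0.162 and 0.281. Without proprioceptor library 2, the second value was -2.98.

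The 250 bases before the start of HOXA7 and HOXA9 are shown because both genes were among those with an edgeR unadjusted p under 0.05 in both comparisons with nociceptor libraries. They come from the RefSeq promoter table of GRCh38.p14, in which 20 of the 38 genes had an entry, and are written 5′ to 3′ on the minus strand with CpG dinucleotides in capitals.
HOXA7, chr7:27156676-27156925: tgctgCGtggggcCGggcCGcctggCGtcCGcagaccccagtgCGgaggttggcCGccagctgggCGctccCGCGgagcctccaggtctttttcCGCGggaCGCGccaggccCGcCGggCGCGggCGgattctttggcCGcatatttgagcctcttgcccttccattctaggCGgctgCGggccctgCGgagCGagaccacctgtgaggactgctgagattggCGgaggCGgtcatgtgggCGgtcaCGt
HOXA9, chr7:27165538-27165787: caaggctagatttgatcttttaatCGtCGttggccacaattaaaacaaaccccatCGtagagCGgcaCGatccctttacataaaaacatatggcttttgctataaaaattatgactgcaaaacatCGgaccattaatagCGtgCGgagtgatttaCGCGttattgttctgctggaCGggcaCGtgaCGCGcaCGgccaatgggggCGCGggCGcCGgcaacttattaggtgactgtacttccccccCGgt

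The HOXA7 stretch held 28 CpG at 70.8% GC and the HOXA9 stretch 20 CpG at 48.8% GC, against a median of 11 CpG and 58% GC over 35116 promoters. Letters bound by factors that act on HOX clusters were searched on both strands. The CDX letters TTTATGG were in 2.3% of all promoters and in that of HOXD8. The PBX-HOX letters TGATNNAT were in 6.47% of all promoters and in those of HOXA2, HOXB1 and HOXD11. The homeodomain core TAATTA was in 4.35% of all promoters and in those of HOXD3 and HOXD11, and the retinoid receptor half-site AGGTCA was in 12.1% and in 0 of the 20. The HOXA7 and HOXA9 stretches held none of the 4.

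The remaining HOXA genes, HOXA2 to HOXA6, act in the hindbrain, neck and upper trunk, and their libraries overlapped between protocols. HOXA4 was at 0.755, 0.830, 1.63 and 1.57 TPM with the nociceptor protocol, 1.07, 0.593 and 4.79 with the mechanoreceptor protocol and 0.483, 6.55 and 0.241 with the proprioceptor protocol. HOXA5 had, in the same order, 0.797, 1.95, 1.51 and 1.81 TPM, then 1.48, 0.712 and 1.43, then 0.624, 2.05 and 0.390. HOXA6 had, in the same order, 1.44, 1.15, 1.45 and 1.01 TPM, then 1.58, 0.434 and 2.72, then 0.113, 3.29 and 0.838. Mechanoreceptor library 3 and proprioceptor library 2 were the highest libraries of their protocols for HOXA3, HOXA4, HOXA6 and HOXA7, and they were also the libraries of those protocols with the highest mesenchyme level (4.28 and 4.25). They were likewise the highest for genes of glia (6.62 and 6.86) and of dividing cells (1.77 and 3.25), so these cell types cannot be told apart here. The part of mesenchymal RNA in these HOXA values was not tested beyond the covariate fit, and nociceptor libraries 1 to 3, with mesenchyme levels of 4.72 to 4.96, had HOXA4 between 0.755 and 1.63. HOXA2 reached 1.17 TPM at most and HOXA3 2.10, both in proprioceptor library 2 (HOXA2 was also at 1.17 in nociceptor library 3). A noncoding transcript carried most of HOXA6, and coding transcripts held 19.0% of its summed TPM.

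HOXB genes made up most of the HOX RNA under every protocol. HOXB7, a trunk-level gene on chromosome 17 (48607232 to 48611017), was the most abundant HOX gene on average, at 37.3, 49.1, 56.9 and 33.5 TPM with the nociceptor protocol, 26.1, 30.5 and 38.5 with the mechanoreceptor protocol and 44.4, 53.0 and 46.7 with the proprioceptor protocol. All proprioceptor libraries lay above all mechanoreceptor libraries, with a log2 fold change of 0.79 ± 0.36 (edgeR unadjusted p = 0.0527, adjusted p = 0.999998). HOXB8 had, in the same order, 1.51, 1.31, 1.95 and 2.43 TPM, then 1.28, 1.04 and 0.703, then 1.31, 1.81 and 3.44. The mechanoreceptor libraries were below all others for HOXB8, with -0.85 ± 0.55 against nociceptor libraries (edgeR unadjusted p = 0.150, adjusted p = 0.644).

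HOXB6 was at 7.56, 14.8, 10.8 and 34.5 TPM with the nociceptor protocol, 9.60, 14.7 and 10.3 with the mechanoreceptor protocol and 12.9, 15.5 and 22.7 with the proprioceptor protocol. Nociceptor library 4 and proprioceptor library 3 were again the highest, as for HOXB9. Of the 34.5 TPM in nociceptor library 4, 22.1 came from the noncoding HOXB6-204, and over all libraries coding transcripts held 50.6% of HOXB6. HOXB5, which is active in vagal and trunk neural crest, had, in the same order, 3.80, 8.90, 8.19 and 8.38 TPM, then 7.65, 12.4 and 21.8, then 12.2, 16.3 and 4.94, and nociceptor library 1 and proprioceptor library 3 were the lowest. Its log2 fold changes against nociceptor libraries were 0.80 ± 0.56 and 0.85 ± 0.56 for mechanoreceptor and proprioceptor libraries (edgeR adjusted p = 0.665 and 0.666).

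The 3′ HOXB genes, best known from the hindbrain, showed the same overlap. HOXB2 was at 14.9, 17.5, 12.8 and 10.6 TPM with the nociceptor protocol, 9.23, 14.9 and 14.7 with the mechanoreceptor protocol and 15.5, 14.5 and 4.91 with the proprioceptor protocol. HOXB3 had, in the same order, 5.41, 1.10, 0.727 and 11.2 TPM, then 1.18, 1.16 and 2.00, then 0.917, 1.62 and 7.67. The 3 high HOXB3 libraries (nociceptor 1 and 4, proprioceptor 3) were the only ones with a noncoding transcript of 466 bases that starts at 48604912, at 4.46, 6.26 and 2.39 TPM. That start lies next to the start of HOXB6-201 at 48604972. The coding HOXB3 transcripts alone ranged from 0.528 to 3.36 TPM. HOXB4 stayed between 0.149 and 1.24, and HOXB13, at the 5′ end of the cluster, between 0.0119 and 0.185.

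The libraries of the 3 protocols overlapped for all 4 tested HOXD genes. HOXD8 (chromosome 2, 176129705 to 176132695), a trunk-level gene, was at 11.5, 7.19, 4.64 and 7.03 TPM with the nociceptor protocol, 9.57, 5.44 and 5.56 with the mechanoreceptor protocol and 3.73, 6.19 and 8.32 with the proprioceptor protocol. HOXD3 had, in the same order, 2.58, 6.48, 4.76 and 4.57 TPM, then 5.58, 5.41 and 3.58, then 3.70, 6.01 and 5.67. Coding transcripts held 21.6% of HOXD3, and the noncoding HOXD3-204, which starts at 176136612, carried between 60.8% and 97.2% by library. HOXD1 was at 0.0994 to 0.781 in the nociceptor, 0.234 to 1.43 in the mechanoreceptor and 0.295 to 0.668 in the proprioceptor libraries, with a log2 fold change of 1.62 ± 0.84 for mechanoreceptor minus nociceptor (edgeR unadjusted p = 0.0808, adjusted p = 0.605). HOXD4 did not exceed 0.764.

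Between mechanoreceptor and nociceptor libraries, 5 of the 25 tested genes were lower at an edgeR unadjusted p under 0.05 (HOXC9, HOXA9, HOXC8, HOXC6 and HOXA7), where 4.59% of all 16130 tested genes were, and 0 were higher, where 3.59% were. HOXA9 passed the filter through the nociceptor libraries alone and could only come out lower. Its place in this count and in those below is therefore no separate support. Genes of dividing cells were lower in the same comparison: 13 of 16 were at that threshold, and 5 of the 16 did not overlap (1.84% of all genes). Their mean log2 CPM was 1.78 to 4.36 in nociceptor and -0.05 to 1.77 in mechanoreceptor libraries, ranges that almost met. Their part in the HOX values was not tested. At an adjusted p under 0.05 edgeR called 0 of the 25, as it did of all genes (0%), and DESeq2 called 4 of the 28 HOX genes for which it gave an adjusted p (HOXC9, HOXA9, HOXC8 and HOXC6), where it called 0.665% of 19690 genes. The libraries did not overlap for 6 genes, all lower (the same 5 and HOXB8), where 1.84% of all genes were, and for 0 that were higher, where 8.05% of all genes were. With the level of mesenchyme genes added to the fit, 7 were lower (the 5, HOXB8 and HOXB9, against 1.8% of all genes) and 2 higher (HOXA3 and HOXB4, against 2.19%) at an edgeR unadjusted p under 0.05. All 5 tested HOXC genes had a value below 0, with a median of -2.48, against -0.27 for 9 HOXB genes, -0.87 for 7 HOXA genes and 0.25 for 4 HOXD genes. The median of the 25 was -0.44 and that of all tested genes 0.00. Without mechanoreceptor library 3, 8 genes were lower at that threshold (HOXA2, HOXA10 and HOXC5 besides the 5) and HOXD1 was higher. HOXA10 is not among the 25 and passed the filter in this refit, through the nociceptor libraries alone. HOXD1 was also higher when nociceptor library 4 was left out. HOXA7 dropped out without mechanoreceptor library 2. The share of all genes at that threshold is not given for these refits, so a change in count cannot be read as particular to HOX genes.

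Proprioceptor against nociceptor libraries share the nociceptor libraries with that comparison, so the values are set side by side only. Of the 25 genes, 4 were lower at an edgeR unadjusted p under 0.05 (HOXA9, HOXC9, HOXA7 and HOXC8), where 3.14% of all genes were, and 0 were higher (3.05%). Here, too, HOXA9 could only come out lower because of the filter. DESeq2 called HOXA9 alone of 28 at an adjusted p under 0.05 (0.157% of all genes), and edgeR 0 (0%). HOXA9, HOXC6 and HOXC9 did not overlap and were lower, where 1.45% of all genes were, and 0 were higher (1.49%). With the level of mesenchyme genes in the fit, 4 were lower at an edgeR unadjusted p under 0.05 (against 1.04% of all genes) and 0 higher (1.56%). The HOXC median was -1.89 and the HOXB median 0.25, with 8 of 9 HOXB values above 0, and over the 25 genes the median was 0.07 against 0.03 for all genes. Without proprioceptor library 1, HOXA9 alone was lower at that threshold. HOXC8 dropped out without nociceptor library 4, when HOXB9 and HOXD1 were higher, or without proprioceptor library 2, and HOXA7 dropped out without proprioceptor library 3, when HOXB5 was higher. For these refits, too, the share of all genes is not given.

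**Figure D5:**
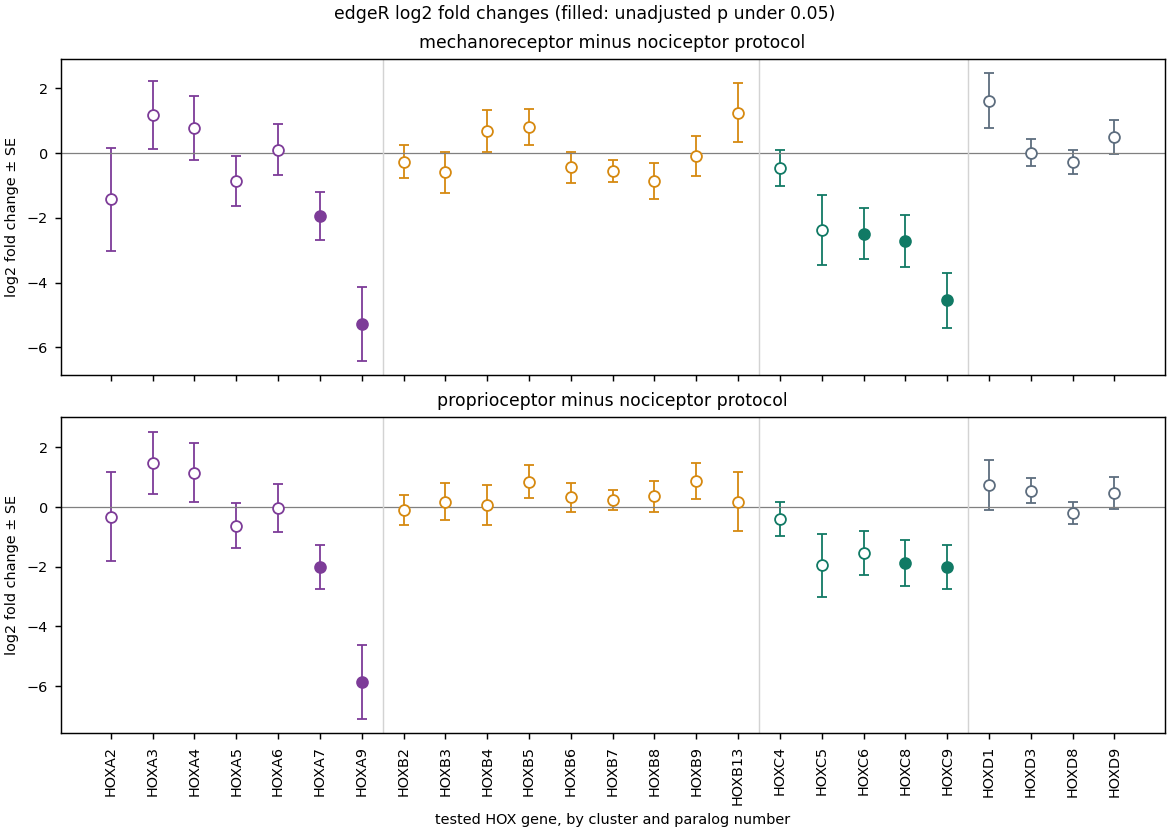
edgeR log2 fold changes with their SE (vertical axis) of the 25 tested HOX genes, ordered by cluster and paralog number, for mechanoreceptor minus nociceptor (top) and proprioceptor minus nociceptor libraries (bottom), with filled points for an unadjusted p under 0.05. The HOXC points descend toward the 5′ end of the cluster to -4.55 for HOXC9 in the top panel, while the HOXB points stay between -0.85 and 1.24.

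Between proprioceptor and mechanoreceptor libraries, HOXC9 was the 1 gene of 25 with an edgeR unadjusted p under 0.05, higher in proprioceptor libraries (0.744% of all genes were), and 0 were lower (0.750%). With the level of mesenchyme genes in the fit, 4 were higher (HOXB7, HOXB8, HOXB9 and HOXC9, against 1.49% of all genes) and 0 lower (1.48%). HOXB7 and HOXB8 did not overlap and were higher (0.868% of all genes), and HOXB13 did not overlap and was lower (5.02%). No HOX gene passed an adjusted p under 0.05 with edgeR (0%) or with DESeq2, which gave a value for 33 of them and called 0.00410% of all genes. In an F test over all 3 protocols, HOXA9, HOXC9, HOXC8, HOXC6 and HOXA7 had an edgeR unadjusted p under 0.05, 5 of 25 genes where 5.73% of all genes did, and 0 had an adjusted p under 0.05 (0% of all genes).

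HOX proteins bind DNA with cofactors of the TALE class (PBX, MEIS and PKNOX), and all 9 listed genes of that class passed the filter. MEIS3 was the most abundant, between 79.1 and 279 TPM. None of the 9 had an edgeR unadjusted p under 0.05 between mechanoreceptor and nociceptor libraries (median log2 fold change 0.01). By TPM, 1 of the 9 did not overlap in that comparison and was higher in mechanoreceptor libraries (8.05% of all genes), and 0 were lower (1.84%). Between proprioceptor and nociceptor libraries, 2 did not overlap and were lower (1.45% of all genes), and 0 were higher (1.49%). PBX3 was lower in proprioceptor than in nociceptor libraries at -0.60 ± 0.24 (edgeR unadjusted p = 0.0314, adjusted p = 0.665): it was at 44.5, 32.2, 31.8 and 39.7 TPM in the nociceptor and 13.4, 30.3 and 25.4 in the proprioceptor libraries.

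Of 27 listed genes of retinoic acid signalling and axial patterning, which act upstream of the clusters, 19 were tested. At an edgeR unadjusted p under 0.05, 0 were higher in mechanoreceptor or in proprioceptor than in nociceptor libraries (3.59% and 3.05% of all genes). GBX2, which sets the front border of the hindbrain, had -1.94 ± 0.86 in proprioceptor libraries (edgeR unadjusted p = 0.0461, adjusted p = 0.665), at 0.228 to 0.820 TPM in nociceptor and 0.0558 to 0.139 in proprioceptor libraries. CRABP1, a carrier of retinoic acid, was the most abundant of the list and ranged from 110.1 to 1920 TPM, both ends within the nociceptor protocol.

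Polycomb proteins keep HOX clusters silent and Trithorax proteins keep them active, and all 22 listed genes of these groups were tested. Between mechanoreceptor and nociceptor libraries 2 were lower and 2 higher at an edgeR unadjusted p under 0.05, near the share of all genes (4.59% and 3.59%), and between proprioceptor and nociceptor libraries 0. EZH2, the H3K27 methyltransferase of dividing cells, had -1.51 ± 0.52 and its paralog EZH1 0.67 ± 0.28, and CBX2, a Polycomb reader, had -1.41 ± 0.60 (edgeR unadjusted p = 0.0142, 0.0376 and 0.0393, adjusted p = 0.598 for each). The part of dividing cells, whose genes were also lower, in the EZH2 value was not tested. RAD21, a cohesin subunit, was the most abundant of the list at 16.1 to 80.6 TPM.

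Homeobox genes of the forebrain and midbrain, regions that carry no HOX expression, were mostly low: 3 of 14 reached 1 TPM in any library and 4 were tested. DLX1, which is also used in cranial neural crest, was highest, at 8.15, 12.2, 17.4 and 0.592 TPM with the nociceptor protocol, 0.104, 0.0630 and 5.70 with the mechanoreceptor protocol and 0.276, 5.87 and 0.215 with the proprioceptor protocol. Its high values were in the libraries with high levels of both mesenchyme and glia genes. DLX2 had -3.91 ± 1.73 between proprioceptor and nociceptor libraries (edgeR unadjusted p = 0.0457, adjusted p = 0.665). Of 6 ParaHox genes, the evolutionary sisters of the HOX clusters, 0 passed the filter, and GSX2, the highest, reached 0.123 TPM. Noncoding RNAs of the clusters were not analysed here.

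The 5 genes whose levels followed HOXC9 most closely over the 10 libraries (Spearman correlation of log2 CPM among 16105 tested genes outside the clusters) were GJB7 (0.95), CIITA (0.94), PRR11 (0.94), FRZB (0.93) and GPC3 (0.93). They are a description, since the libraries share protocols and differ in the cells they hold. GPC3, a cell surface proteoglycan, was at 2.22 to 8.41 TPM in the nociceptor, 0.440 to 0.984 in the mechanoreceptor and 0.584 to 2.01 in the proprioceptor libraries. CIITA, the activator of MHC class II genes, was at 1.11 to 3.32, 0.434 to 0.928 and 0.582 to 0.813. FRZB, a secreted WNT antagonist, was at 0.498 to 0.935, 0.193 to 0.379 and 0.193 to 0.612.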

How the data were processed

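Bulk RNA-seq of 10 libraries was analysed. The labels' protocols name Trizol extraction, the Clontech Ultra Low v4 cDNA kit and NexteraXT libraries. As this kit keeps no strand, reads from a gene and from its antisense partner cannot be separated. Per the submitters' processing notes, kallisto 0.50.1 and GRCh38.p14 were used. The authors deposited estimated counts (rounded to whole numbers, used as such) and TPM values per gene and per transcript; the rule that sums transcripts to genes is not given in the sources used here. An entry with a blank name, 0.733% to 1.66% of counts, was left out.

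Counts of 16130 genes kept by filterByExpr were tested with edgeR 4.0.16 (TMM, quasi-likelihood, 1 mean per protocol over all libraries, common biological coefficient of variation 0.55), two-sided with Benjamini-Hochberg adjustment over all genes in R 4.3.3, with DESeq2 1.42.0 and limma 3.58.1 as alternatives. On simulated data for mechanoreceptor minus nociceptor (16130 genes) with the spread estimated here, edgeR recovered 1 of 50 genes changed 2-fold, 21 of 50 changed 4-fold, 37 of 50 changed 8-fold and 43 of 50 changed 16-fold at an adjusted p under 0.05. With a smaller spread of 0.2, it recovered 38, 50, 50 and 50 of 50. The changed genes all had a mean above 1 CPM, so these figures do not cover genes below that, such as HOXA9. No 2 libraries were copies of each other. Transcripts were matched by Ensembl identifier to the GENCODE annotation, which gave 105 HOX transcripts, 70 in the same version. Their sums fell short of the gene entry by up to 0.099 TPM for HOXA9 and 0.332 for HOXD3, and transcript shares are of the gene entry. Values in every library are given for genes with an unadjusted p under 0.05 in any comparison or a mean TPM of at least 1, and the rest by range. Of each list of related genes, those with the 3 smallest unadjusted p under 0.05 per comparison and the most abundant are named. The genes and lists were chosen with earlier results of these data known. Non-overlap means that every library of 1 protocol lay above every library of the other. Some genes and sequences are not reported here.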

Additional observations from a re-analysis of the deposited data

Results flagged for a closer look

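In the 4 nociceptor libraries, 21 values were checked, namely HOX genes and the summed TPM of the 4 clusters. For 4 of these values, all of them genes, 1 library stood far from the other 3. The sums are made of the same genes, so the values are not independent of each other. Chance alone sets apart about 1 in 20 such groups, and the protocols with 3 libraries were not checked. In nociceptor library 4, HOXA9 was at 1.97 TPM against 0.390 to 0.502 in the others, HOXB9 at 36.5 against 10.7 to 14.96 and HOXC8 at 5.66 against 0.927 to 1.497. This library also had the lowest mesenchyme level of its protocol (1.98 against 4.72 to 4.96) and the highest pan-neuronal level (9.28 against 8.11 to 8.22), whose part in these values was not tested. In nociceptor library 1, HOXB5 was at 3.80 TPM against 8.19 to 8.90.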

How the results depend on the processing

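For the 5 genes with an unadjusted p under 0.05, 10 differences were recomputed under the alternatives, giving 176 values, all in the same direction. Of these, 5 passed an adjusted p under 0.05, all with DESeq2. DESeq2 called 4 HOX genes in mechanoreceptor minus nociceptor and 1 in proprioceptor minus nociceptor libraries. At its unadjusted p under 0.05, the same 7 genes were lower in both, HOXA10 and HOXC5 among them. In proprioceptor minus mechanoreceptor, 2 genes were higher with DESeq2, 2 with RLE scaling, 2 with log2(TPM + 0.1) and 4 with the mesenchyme covariate (HOXB7, HOXB8, HOXB9 and HOXC9, where 1.49% of all genes were). At an unadjusted p, the share of all genes is not given for DESeq2, RLE scaling or log2(TPM + 0.1). Their counts cannot be read as particular to HOX genes. With that covariate, 2 were higher in mechanoreceptor minus nociceptor (HOXA3 and HOXB4, 2.19% of all genes). HOXA9 could not be tested on the TPM scale.

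Same-numbered libraries mostly did not deviate together (correlations between -0.63 and 0.49, and 1 of 9 pairs was best matched by its own number). The library names ran in the order of these numbers, and the labels do not say whether same-numbered libraries were prepared together. As the cell make-up varied within each protocol, the correlations cannot exclude such sets, so a fit with the number as a block was also made. With the replicate block, 4 genes were lower (without HOXA7) and 1 (HOXD1) was higher in mechanoreceptor minus nociceptor, and 2 were lower (without HOXA7 and HOXC8) in proprioceptor minus nociceptor libraries. The share of all genes is not given for the block fit, so these counts cannot be read as particular to HOX genes.

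Leaving out 1 library at a time gave 5 to 8 lower and 0 to 1 higher genes in mechanoreceptor minus nociceptor (8 without mechanoreceptor library 3), 1 to 6 lower and 0 to 2 higher in proprioceptor minus nociceptor, and 1 to 2 higher in proprioceptor minus mechanoreceptor. The largest counts of lower genes include HOXA10, which was not tested with all libraries. The share of all genes is not given for these refits. The log2 ratio of mean HOXA sums ranged from -2.39 to -0.044 for proprioceptor minus nociceptor and from -1.84 to 0.69 for proprioceptor minus mechanoreceptor, lowest without proprioceptor library 2, so that no direction of HOXA in the latter is given.

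HOXA9 was the most 5′ HOXA gene in 2, 0, 0 and 2 libraries at a TPM of at least 0.5, 2 and 5 and at 10 counts, and in 0 to 1 with a library left out. HOXC9 was the most 5′ HOXC gene in 8, 5, 3 and 8 libraries at the same settings. HOXD8 was the most 5′ HOXD gene in 1 library at 10 counts, where HOXD9 took its place in 9. By counts, groups 6 to 8 held 48.6%, 37.8% and 39.9% of HOX in nociceptor, mechanoreceptor and proprioceptor libraries (56.8%, 47.7% and 52.4% by TPM), and groups 9 to 13 held 25.8%, 27.8% and 32.9% (17.6%, 17.8% and 21.0%). The cause of these changes was not tested. Low counts, such as those of HOXA9, limit the precision.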
